A study of Mus musculus with 6 samples.

Results

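Cycling regulatory T (Treg) cells of the mouse spleen were the 71 cells, of 10685 in the count table, in which 9 proliferation genes together gave 5 or more unique molecular identifiers (UMIs, 1 per captured RNA molecule). The 9 genes were Mki67, Top2a, Birc5, Cdk1, Ccnb2, Ccna2, Ube2c, Rrm2 and Nusap1. The cells also had at least 200 genes, under 10% of UMIs from mitochondrial genes, no UMI of the B cell gene Cd79a and under 50% of UMIs from the globin genes Hba-a1, Hba-a2, Hbb-bs and Hbb-bt. Of the 10685 cells, 10453 passed these 4 limits, and the 71 cycling cells were 0.679% of them (95% Clopper-Pearson interval 0.531 to 0.856%, for counting error only). The other 10382 cells are called the other cells.

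The study asked how loss of the repressor Bach2 alters Treg cells, which were sorted from the spleen by EGFP and profiled singly by 10x Chromium 3′ sequencing. The mice were C57BL/6, were 18 to 21 weeks old and had received tamoxifen. The series has 3 samples labelled cKO, from Bach2fl/fl Foxp3EGFP-Cre-ERT2 mice, and 3 labelled WT, from Bach2+/+ Foxp3EGFP-Cre-ERT2 mice. Both genotypes therefore carried the EGFP reporter and the tamoxifen-inducible Cre under control of Foxp3, the factor that defines Treg cells. Cell names ended in a barcode suffix from 1 to 6, and no name links any of these 6 barcode sets with a sample. The cKO and WT cells were therefore not compared. Values are given for all sets together and for each set, in the order of sets 1 to 6. Neither sets nor cells count as replicates here, no test was made, and every interval covers counting error only.

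A dividing cell copies its DNA in S phase, when origin licensing factors, the replication fork, nucleotide supply and new histones are needed, and separates the copies in mitosis, when kinases, cyclins and the spindle act. E2F factors drive many S phase genes, and MuvB-containing complexes act through the cell cycle genes homology region (CHR) of many mitosis genes, often beside CCAAT boxes bound by NF-Y. In the spleen most Treg cells are resting, and a smaller activated population divides in response to antigen and interleukin-2.

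The promoters of these 2 classes of genes differed in the motifs they held. In RefSeq promoters of GRCm38.p6, from 250 bases before to 50 bases after each start, both strands were searched for 3 motifs. A CHR match had the letters TTTGAA or, as a second form, TTTAAA. Matches of the CCAAT box had the letters of its name. An E2F match had the letters TTTCCCGC, TTTCGCGC, TTTGCCGC or TTTGGCGC. No motif holds another, though 2 E2F matches can share bases. Of the 84 mitosis genes in the count table (spindle, kinetochore, mitotic kinases and cyclins), 70 matched a promoter, and 62.9% of these held a CHR, against 30.6% of 27025 genes. A CCAAT box stood in 71.4% of the mitosis genes and in 41.1% of all genes, and both motifs together in 50% and 12.2%. Of 47 matched replication and nucleotide genes, 31.9% held an E2F motif, against 2.6% of all genes and 5.71% of the mitosis genes. A CHR stood in 25.5% and a CCAAT box in 59.6% of those 47 genes. Among the genes with more UMIs in cycling cells by the rule given further on, 205 matched a promoter, of which 33.2% held a CHR. The share was 30.6% of all promoter genes, 24% of measured genes, 28.6% of genes called lower and 22.5% of genes called in neither direction. A CCAAT box stood in 55.6% of the genes called higher (41.1% of all, 44% of measured, 35.7% of lower and 42.9% of uncalled genes). An E2F motif stood in 10.7% (2.6, 6.24, 2.38 and 5.85%), and both a CHR and a CCAAT box in 24.9% (12.2, 10.6, 4.76 and 8.94%). These shares describe lists, not the cells, and a match is not evidence of binding. The 5 stretches below are the 120 bases before the start of genes with more UMIs in cycling than in other cells, chosen to show each motif, with matches in capitals, 5′ to 3′. Plk1, a mitotic kinase (chr7:122159315-122159434, plus strand), and Cdc20, an activator of the anaphase-promoting complex (chr4:118437344-118437463, minus strand), held CHR and CCAAT matches. Cks2, a subunit of cyclin-dependent kinases (chr13:51645112-51645231, plus strand), and Rrm1, the large subunit of ribonucleotide reductase (chr7:102441575-102441694, plus strand), held CCAAT boxes only. Mcm6, a subunit of the replicative helicase (chr1:128359706-128359825, minus strand), held 3 E2F matches, 2 of which overlap, and 2 CCAAT boxes.
Plk1: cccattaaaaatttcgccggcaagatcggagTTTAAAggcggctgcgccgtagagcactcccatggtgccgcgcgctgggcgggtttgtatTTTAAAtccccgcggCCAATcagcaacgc
Cdc20: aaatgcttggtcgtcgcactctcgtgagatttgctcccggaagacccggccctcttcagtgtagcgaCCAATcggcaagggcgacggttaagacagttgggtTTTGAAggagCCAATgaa
Cks2: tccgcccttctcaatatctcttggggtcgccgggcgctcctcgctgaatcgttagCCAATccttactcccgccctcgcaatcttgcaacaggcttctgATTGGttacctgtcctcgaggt
Rrm1: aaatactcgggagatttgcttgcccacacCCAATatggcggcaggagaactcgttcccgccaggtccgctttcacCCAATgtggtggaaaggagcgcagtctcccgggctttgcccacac
Mcm6: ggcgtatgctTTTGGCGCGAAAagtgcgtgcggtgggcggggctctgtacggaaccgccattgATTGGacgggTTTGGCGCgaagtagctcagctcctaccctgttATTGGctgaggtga
In GENCODE M21, which shares this build, 87 bases of the Plk1 stretch lie in the antisense gene Gm15489 and 9 bases of the Cdc20 stretch lie in Cdc20 itself. No gene of that annotation overlaps the Cks2, Rrm1 or Mcm6 stretch.

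The rule separated most of these cells widely from the rest. The UMI sum of the 9 genes was 0 in 9646 cells, 1 in 663, 2 in 61, 3 in 8 and 4 in 4 cells, while the cycling cells had a median sum of 32 and a highest of 88, and 47 of the 71 had 20 or more. These sums chose the cells and are a description only. No single gene of the 9 was seen in every cell: before thinning, Birc5, which encodes the mitotic inhibitor of apoptosis survivin, was found in 65 of the 71 cells, Rrm2 and Top2a in 58 each, and Mki67, which encodes the proliferation antigen Ki-67, in 47. Just inside the limit, 10 cells had a sum of 5 or 6. After thinning to 2000 UMIs per cell they had a median of 31 UMIs of the histone and histone chaperone list and 5 of the mitosis lists. The cells just outside, with a sum of 3 or 4 and deep enough to thin, had medians of 15 and 2. After thinning, the 9 genes together gave a median of 5 UMIs per cycling cell, and 4 cycling cells had none.

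Cycling cells were present in all 6 barcode sets, at 10, 6, 4, 16, 13 and 22 cells. They were 0.538, 0.344, 0.222, 0.907, 0.773 and 1.37% of the cells passing the limits. The highest share, in set 6 (0.863 to 2.07%), and the lowest, in set 3 (0.0604 to 0.567%), had intervals that did not overlap. Neighbouring shares in the order of size did have overlapping intervals. Because the sets carry no genotype here, no comparison follows from this spread.

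Cycling cells held far more RNA molecules than the other cells. They had a median of 8154 UMIs (lowest 2551, highest 22130) against 2082.5, a 3.92-fold difference, and a median of 2500 genes against 917. In each set the median of cycling cells, from 6398 to 9950.5 UMIs, was above that of other cells, from 1995.5 to 2220. The rule favours deep cells, since 5 UMIs of 9 genes are reached more easily in them, and its part in this difference was not tested beyond the values given here. Of the 210 deepest cells, those in the top 2%, 59 were cycling, which is 28.1% of that group and 83.1% of all cycling cells. Thinned to the same 2000 UMIs, cycling cells still showed more genes per cell, 982 at the median against 867, and against 896 in 109 other cells that reached the lower quartile of cycling cells (6010.5 UMIs or more, called deep other cells). The mitochondrial share was 1.48% at the median in cycling cells and 1.83% in other cells.

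**Figure D1:**
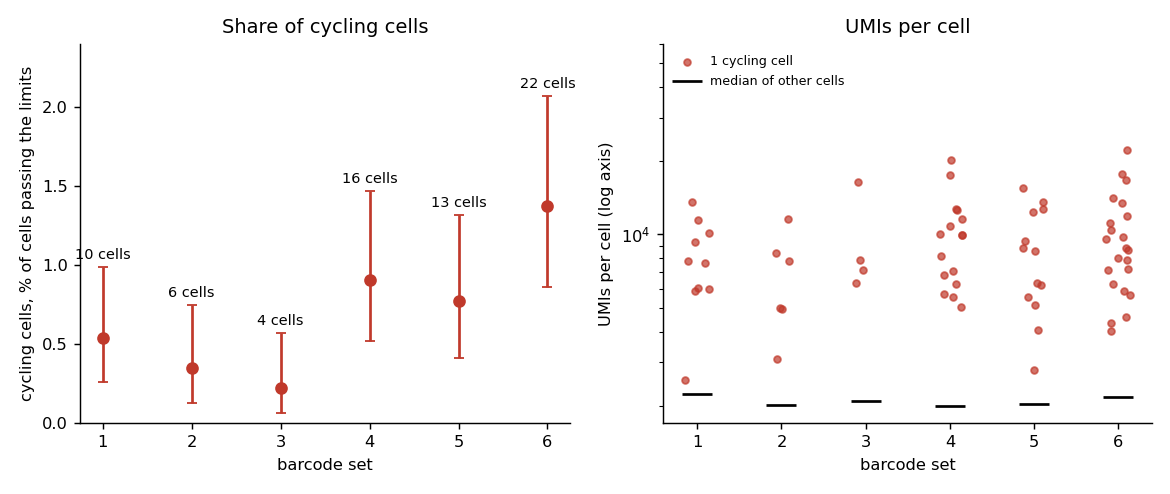
Left, share of cycling cells among cells passing the limits (y axis, percent) in each barcode set (x axis), with 95% Clopper-Pearson intervals and the number of cycling cells. Right, UMIs per cell (y axis, log scale) of each cycling cell (points, shifted sideways at random) beside the median of other cells (bars): all 71 points lie above the bar of their set.

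The authors' normalised table holds only 35 of the 71 cycling cells, 49.3%, but 99.2% of the other cells. The 36 cycling cells missing from it all had 2500 or more genes, as did 24 of the 80 other cells missing from it. No cycling or other cell with 2500 or more genes was in that table. No doublet caller was run here. Of all barcodes, 63 occurred in more than 1 set, and 2 cycling cells had such a barcode.

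The label of Treg cells was checked against markers. Each of the 71 cells had UMIs of T cell markers (Cd3d, Cd3e, Cd3g, Cd4, Lck, Cd28, Lat), at a median of 35 and a lowest of 3, and of Treg markers, at a median of 19 and a lowest of 2. Ikzf2, which encodes the Treg factor Helios, was detected in 67 cells, Tnfrsf18, which encodes the receptor GITR, in 64, and Foxp3 in 8. Thinned to equal depth, the median was 8 T cell UMIs in cycling and 9 in other cells, and 4 and 6 Treg UMIs. Before thinning, the B cell marker Ms4a1 and the myeloid marker Itgam were at 0 in all 71 cells, but both were also low in other cells, at 1.49 and 0.083 CPM. Other markers were seen: Cd74 in 54 cells, Ctss in 52, Cst3 in 46 and Cd79b in 16. Lyz2 was at 308 against 48.2 CPM, from 5 cells. The 12 B cell markers in the table summed to 125 to 656 CPM of thinned UMIs in cycling cells over the sets, against 319 to 445 CPM in other cells. The sums were 83.3 to 1625 against 457 to 1029 CPM for 11 myeloid markers, 0 to 295 against 24.2 to 309 CPM for 10 erythroid markers and 0 to 1750 against 63.7 to 113 CPM for 9 CD8 and NK markers. Among markers of other cell types 3 cells stood out: 1 had 268 UMIs of myeloid markers such as Lyz2, 1 had 33 UMIs of CD8 and NK cell markers, and 1 had 21 UMIs of erythroid markers. Without these 3 cells 240 genes were called higher and 99 lower, against 250 and 106 with them by the rule given next. Ratios without them are given further on for Lgals1, S100a6 and Lgals3 only, and their part in other single results is not given. After thinning, deep other cells had 940 CPM of Cd74, 422 of Cst3, 151 of Lyz2 and 91.7 of Nkg7. All thinned other cells had 229, 135, 43.2 and 62.7 CPM of these, while Ctss was at 271 in deep against 317 CPM. Depth and RNA of other cell types therefore cannot be told apart in comparisons with deep other cells.

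To compare gene levels at equal depth, each cell was thinned at random to 2000 UMIs. All 71 cycling cells and 5594 other cells were deep enough, and 4788 shallower other cells were left out. Levels are UMIs scaled to a total of 1000000 (CPM), from the summed thinned UMIs, 142000 in cycling and 11188000 in other cells, so 1 UMI in the cycling cells is worth 7.04 CPM. A gene was measured with at least 10 UMIs in the cycling cells, or where the other cells' level would have given 10. It was called higher or lower when the ratio was at least 1.5-fold and had the same direction in all 6 sets. Of 2254 measured genes, 250 were called higher (11.1%) and 106 lower (4.7%), and 634 were measured only through the cycling cells, so could hardly be other than higher. The median log2 ratio of all measured genes was 0.35. Over the 1620 genes measured at the other cells' level it was 0.10, and 142 of these were called higher (8.77%) and 106 lower (6.54%). By the summed ratio alone, with no rule on sets, 807 genes were past 1.5-fold upward (35.8%) and 232 downward (10.3%). Relative to the median gene, the split was 144 higher (6.39%) and 302 lower (13.4%). With totals that leave out the 9 genes, ribosomal protein and mitochondrial genes, the median ratio moved by -0.28, and 177 were higher and 238 lower.

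Single calls were sensitive to the random thinning, and the set with 4 cycling cells has only 8000 thinned UMIs. In 20 further draws, 117 to 137 of the 250 higher calls and 47 to 61 of the 106 lower calls were made again. In the thinning used here and in all 20 draws together, 34 genes were called higher and 13 lower. List sums need no call, and for genes named by the rule the number of the 20 draws that made the same call is given where a call is described. As cell cycle genes vary with the 9 genes of the rule, their ratios describe the cells chosen and are no independent evidence.

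Replication genes were high in every set. The 35 genes of origin licensing and the replication fork in the table summed to 4070 CPM in cycling and 615 CPM in other cells, and the sums by set, 2385 to 4781 against 534 to 680 CPM, did not overlap. Of these, 19 were measured, all only through the cycling cells, and 7 were called higher. That filter fixed their direction, and none of the 35 reached it at the other cells' level, so this count carries no weight. The member with the highest ratio was 2810417H13Rik, now named Pclaf, the PCNA clamp-associated factor. Its levels by set were 850, 1000, 750, 812.5, 500 and 659 CPM in cycling cells against 0.567 to 8.64 CPM in other cells. Its log2 ratio was 7.40 (6.89 to 7.93), and it was called in all draws. Pcna itself, the sliding clamp, reached 331 CPM against 47.9 CPM (log2 ratio 2.79, 2.33 to 3.22). The helicase subunit Mcm6 was at 211 against 46.5 CPM (log2 ratio 2.18). The other helicase subunits Mcm2, Mcm3, Mcm4, Mcm5 and Mcm7 had log2 ratios from 2.66 to 3.18 but no UMI in at least 1 set, and were not called. Clspn, which encodes the checkpoint mediator claspin, was called here at a log2 ratio of 6.52 but in 0 of the 20 draws, on 14 UMIs.

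Nucleotide supply followed, with 2972 CPM over 21 genes against 999 CPM and no overlap between the sums by set. Of 11 measured members, 6 were called higher and none lower, against 11.1 and 4.7% of all measured genes. Of the 11, 8 were measured only through the cycling cells, Tk1, Tyms and Dut among them, so the filter fixed their direction. Of the 3 measured at the other cells' level, 2 were called higher, against 8.77% of all such genes. Tk1, thymidine kinase, was at 300, 750, 375, 281, 76.9 and 250 CPM in cycling cells and at 4.03 to 9.9 CPM in other cells (log2 ratio 5.45, called in 19 of 20 draws). Tyms, which makes thymidylate, had a log2 ratio of 3.92 (3.37 to 4.44, 18 of 20 draws), and Dut, which removes dUTP, one of 2.89 (2.48 to 3.27, all draws).

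Histone genes gave the largest sums of the cell cycle lists. The list of histones, histone chaperones and HMG proteins reached 25894 CPM in cycling against 5492 CPM in other cells, from 23591 to 33375 CPM over the sets against 4922 to 6142 CPM. Of 28 measured members, 18 were called higher and none lower, against 11.1 and 4.7% of all measured genes. Of the 28, 16 were measured only through the cycling cells, Hist1h2ap, Hist1h2ae and Asf1b among them, so the filter fixed their direction. Of the 12 measured at the other cells' level, 8 were called higher, against 8.77% of all such genes. Hist1h2ap, a replication-dependent H2A gene (chr13:21833026-21833507, minus strand, GENCODE M21), was at 6550, 4750, 10375, 4437.5, 6346 and 4000 CPM in cycling cells. In the other cells it stayed between 17 and 25.2 CPM in every set, a log2 ratio of 7.95 (7.74 to 8.17). It was absent from 19 of the 71 thinned cycling cells. Hist1h2ae had a log2 ratio of 6.90 and Asf1b, a chaperone that hands histones to the fork, one of 5.68, and both were called in all draws. Over the 20 draws, 13 to 20 members of this list were called higher, against 5 to 12 replication and 4 to 7 nucleotide genes. Hmgb2, a chromatin protein, had 4669 against 243 CPM, and H2afz, a replication-independent variant, 3901 against 1032 CPM. Replication-dependent histone genes are near-identical copies, and how reads matching several copies were counted is not given in the sources used here, so single members of that family are uncertain.

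The mitosis lists held the largest ratios. Spindle and kinetochore genes summed to 5063 against 319 CPM, and mitotic kinases, cyclins and APC/C genes to 3493 against 369 CPM, each without overlap between the sums by set. Of the measured members, 14 of 28 and 8 of 13 were called higher and none lower, against 11.1 and 4.7% of all measured genes. But 27 and 11 of them were measured only through the cycling cells, so the filter fixed their direction and these counts carry no weight. Aurkb, the kinase of the chromosomal passenger complex, was at 50, 250, 375, 156, 231 and 205 CPM in cycling cells and at most 2.75 CPM in other cells (log2 ratio 7.25, called in 18 of 20 draws). Over the 20 draws, 10 to 17 spindle and 4 to 8 kinase, cyclin and APC/C genes were called higher. Cks1b and Cks2, the small subunits of cyclin-dependent kinases, had log2 ratios of 5.26 and 4.27 and were called in all draws. Cdca3, which promotes destruction of the mitotic inhibitor Wee1, had a log2 ratio of 7.08 (18 of 20 draws), and Spc25, a kinetochore subunit, one of 6.92 (15 of 20). Ccnb1, the mitotic cyclin B1, was at 200, 83.3, 625, 31.25, 308 and 159 CPM against at most 2.94 CPM (log2 ratio 7.54, 12 of 20 draws). Plk1 was at 106 against 1.34 CPM (log2 ratio 6.30), on 15 UMIs in 15 cells, and was called in only 6 of 20 draws. The highest ratio of any measured gene outside the rule, 8.30 (6.41 to 10.77) for the kinetochore gene Nuf2, rested on 12 against 3 UMIs and was called in 2 of 20 draws. Pttg1, which encodes securin, was not called, at 70.4 against 91.7 CPM (log2 ratio -0.38, -1.45 to 0.50).

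Genes of chromosome structure and the cytoskeleton were higher too. Condensin, cohesin and lamina genes summed to 2465 against 587 CPM. Lmnb1, which encodes lamin B1, was at 300, 167, 375, 406, 500 and 318 CPM against 22.6 to 38.2 CPM (log2 ratio 3.62), and the condensin subunit Smc2 had a log2 ratio of 4.33. Both were called in 19 of 20 draws. Of the 11 measured members of that list 10, Lmnb1 and Smc2 among them, were measured only through the cycling cells. The filter fixed the direction of these 10, so their values and calls are a description. Stmn1, which encodes the microtubule-destabilising protein stathmin, was at 1100, 2083, 2125, 1562.5, 1269 and 1864 CPM in cycling cells and at 10.8 to 24.2 CPM in other cells (log2 ratio 6.55, 6.26 to 6.83). It was detected in 63 of the 71 thinned cells. Stmn1 was also measured only through the cycling cells, so the filter fixed its direction against all thinned other cells. Against deep other cells, 191 of 2311 genes were called higher (8.26%) and 71 lower (3.07%). In those cells Stmn1 stood at 91.7 CPM, which leaves a log2 ratio of 4.14. Tuba1b, an alpha-tubulin, was at 1972 against 218 CPM (log2 ratio 3.18) and Tubb4b, a beta-tubulin, at 634 against 86.2 CPM (log2 ratio 2.88). Stmn1, Tuba1b and Tubb4b were called in every draw.

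**Figure D2:**
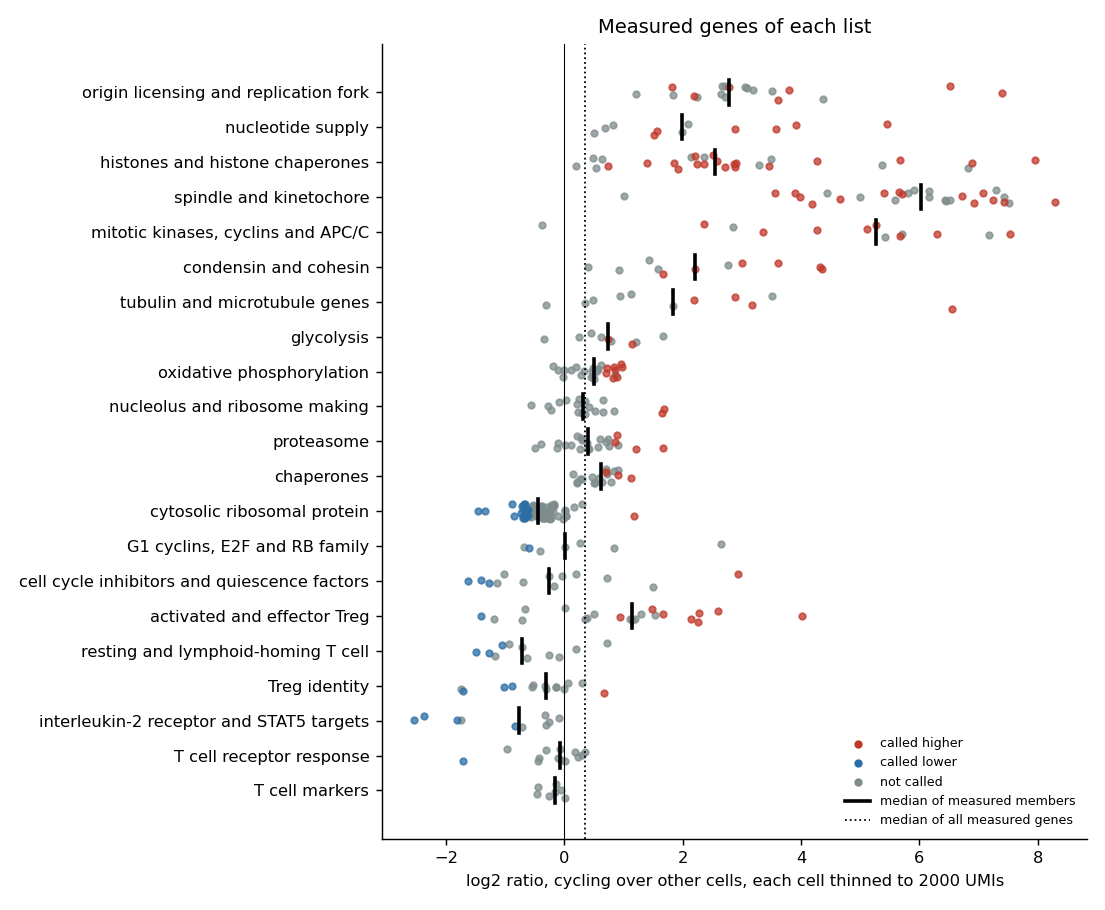
Log2 ratio of cycling over other cells after thinning to 2000 UMIs (x axis) for each measured gene (points) of 21 gene lists (y axis), coloured by call, with the list's median (bar) and the median of all measured genes at 0.35 (dotted line). Medians of the 7 lists from replication to tubulin lie between 1.84 and 6.03, that of ribosomal protein genes at -0.44. In each of these 7 lists except tubulin, most points were measured only through the cycling cells, so the filter favoured high medians. No ribosomal protein gene was measured in that way only.

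Individual cells differed in which part of the cycle their genes pointed to. Per thinned cell, the median was 8 UMIs of replication genes (1 in other cells), 6 of nucleotide genes (2), 53 of histone and histone chaperone genes (10) and 17 of mitosis genes (1). All 71 cells had more UMIs of the 3 S phase lists than of the mitosis lists, most of them of the histone list. Without the histone list, 34 cells (47.9%, 35.9 to 60.1%) had more replication and nucleotide UMIs and 37 had more mitosis UMIs. At least 10 mitosis UMIs were found in 47 cells, 10 or more replication and nucleotide UMIs also in 47, and both in 30. Hist1h2ap split the cells further: 35 had 10 or more UMIs and 30 had 2 or fewer. Of the 47 cells with 10 or more mitosis UMIs, 32 were among the former. These counts order cells by list sums and are no assignment of phases. Free RNA could add to such sums, and its part was not tested.

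**Figure D3:**
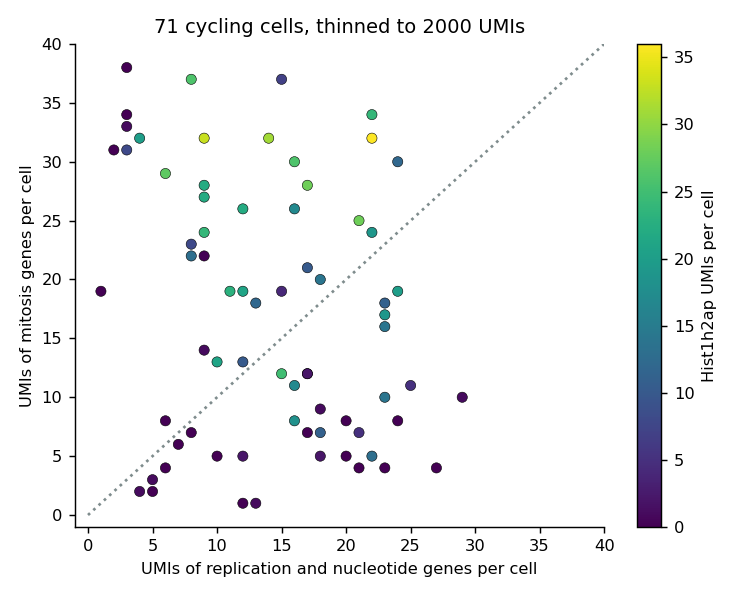
UMIs of mitosis genes (y axis) against UMIs of replication and nucleotide genes (x axis) in each of the 71 cycling cells after thinning to 2000 UMIs, coloured by Hist1h2ap UMIs. Points lie on both sides of the dotted line of equal counts, 37 above and 34 below it.

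As a list, G1 regulators did not share the pattern, though single members had higher summed levels. The 22 genes in the list of G1 cyclins, E2F and RB family members summed to 1303 CPM in cycling and 1215 CPM in other cells. The sum was higher in 3 sets and lower in 3. None of the 7 measured members was called higher and 1 was called lower, against 11.1 and 4.7% of all measured genes. The 1 called lower, also in 10 of 20 draws, was Mycbp2, which is in the list but is no G1 cyclin, E2F or RB family gene. Ccnd2, which encodes the G1 cyclin D2, had 324 against 520 CPM (log2 ratio -0.68, -1.13 to -0.27). It was lower in 5 of 6 sets and so was not called here, but was called in 19 of 20 draws. Cdk4 was at 190 against 106 CPM (log2 ratio 0.84, 0.24 to 1.39), higher in 3 of 6 sets and called in 3 of 20 draws. Cdk2 was at 70.4 against 11.3 CPM (log2 ratio 2.64, 1.55 to 3.57) on 10 UMIs, higher in 4 of 6 sets and called in 0 draws. Cdk2 was measured only through the cycling cells, so the filter fixed its direction.

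Cell cycle inhibitors and quiescence factors had a lower sum in cycling cells in all 6 sets, 2704 against 3788 CPM. Of 13 measured members, 3 were called lower and 1 higher, against 4.7 and 11.1% of all measured genes. Against deep other cells none was called lower and 2 were called higher, with 3.07 and 8.26% of all genes. Cdkn2c, which encodes the CDK4/6 inhibitor p18, was the only measured member called higher against all thinned other cells. It was at 200, 250, 250, 156, 115 and 159 CPM against 12.3 to 36.9 CPM (log2 ratio 2.94, 2.27 to 3.54, all draws). As it was measured only through the cycling cells, the filter fixed its direction and its values are a description. Btg1, an antiproliferative gene of resting lymphocytes, was called lower in all draws. Its levels were 500, 333, 500, 750, 577 and 682 CPM in cycling and 1401 to 1806 CPM in other cells (log2 ratio -1.40). Against deep other cells its log2 ratio was -0.55 and it was not called. Tsc22d3, the glucocorticoid-induced leucine zipper gene, had a log2 ratio of -1.64 (8 of 20 draws) against all thinned other cells but 0.10, on 7 UMIs, against deep ones.

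Among Treg genes, the activated group was high and the identity genes were not. The 38 activated and effector genes summed to 16859 CPM against 5816 CPM, from 9150 to 27625 CPM over the sets against 4435 to 7337 CPM. Of 21 measured members, 8 were called higher and 1, Cd83, lower, against 11.1 and 4.7% of all measured genes. Of the 21, 3 were measured only through the cycling cells, and of the other 18 members 6 were called higher. Lgals1, which encodes galectin-1, a lectin of activated T cells, was at 1950, 2500, 4750, 2750, 3538 and 2795 CPM against 342 to 611 CPM (log2 ratio 2.60, 2.46 to 2.75). S100a6, a calcium-binding protein gene, was at 1000, 1250, 1375, 1344, 1462 and 1159 CPM against 153 to 368 CPM (log2 ratio 2.27, 2.05 to 2.49). Crip1, a LIM-domain protein gene, was at 4204 against 1322 CPM (log2 ratio 1.67) and S100a10, the annexin partner p11, at 2718 against 975 CPM (log2 ratio 1.48). All of these were called in every draw. Lgals3, galectin-3, was measured only through the cycling cells, so the filter fixed its direction and its values are a description. Its log2 ratio was 4.01 (12 of 20 draws), and it was found in 16 of 71 thinned cycling cells (22.5%, 13.5 to 34%). The shares with a Lgals3 UMI were 2.63% in other cells, 3.67% in deep other cells and 2.7% in 37 B cells. Median depth before thinning was 8154, 2708, 7198 and 2593 UMIs in these 4 groups. Tnfrsf9, which encodes a costimulatory receptor of activated T cells, was at 49.3 against 113 CPM (log2 ratio -1.20, -2.52 to -0.15), lower in 5 of 6 sets and not called. The highest list sum, in set 3, included 6625 CPM of the chemokine gene Ccl5, which was at 0 to 250 CPM in cycling cells of the other sets, and the sum of CD8 and NK markers was also highest there, at 1750 CPM. The part of the 1 cell rich in those markers was not tested for this sum. Without the 3 cells rich in markers of other cell types, the log2 ratio was 2.61 for Lgals1, 2.31 for S100a6 and 3.92 for Lgals3.

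Most cycling cells lay toward the activated end of the other cells. A score, the mean log-normalised level of the activated list minus that of the resting list, had a median of 0.23 in cycling and -0.17 in other cells. Of the 71 cycling cells, 52 (73.2%, 61.4 to 83.1%) lay in the upper tertile of the other cells of their own set, 11 in the middle and 8 in the lower tertile. By set the upper share was 60, 50, 75, 68.75, 84.6 and 81.8%. In all, 5 cells lay within 0.05 of the limit of the upper tertile. The share was 49.5% in deep other cells. By set it was 68.2, 60, 42.9, 38.9, 46.7 and 40% in them, above the share of cycling cells in sets 1 and 2. In set 1 the median score of deep other cells, 0.053, was also above that of cycling cells, 0.0095. The part of depth in the score was not tested further. Compared only with other cells of the upper tertile, 8.73% of 2302 genes were called higher and 4.69% lower. The activated list then had 6 higher and 3 lower members and a median log2 ratio of 0.24, against 1.14 before. The upper tertile was itself chosen by high activated and low resting levels, so values of these 2 lists against it are a description. Lgals1 had a log2 ratio of 1.81 and Lgals3 one of 2.86 in that comparison, and S100a6 one of 1.17. The score is a range and not a cell type.

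**Figure D4:**
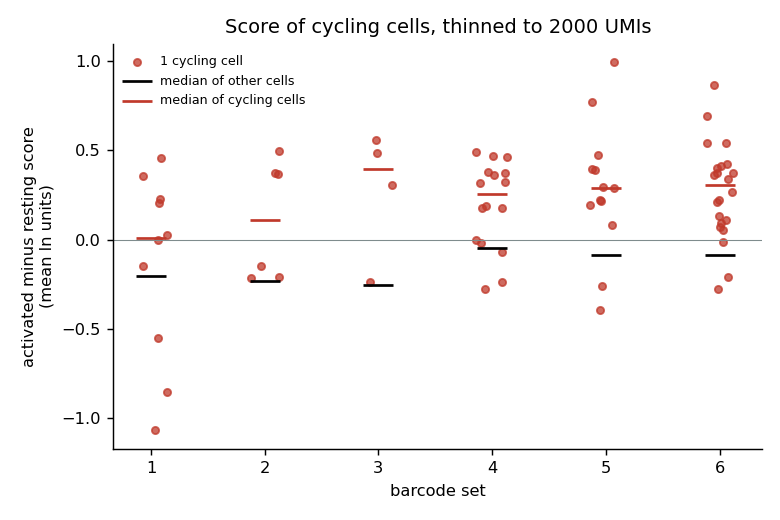
Activated minus resting score (y axis, mean of ln-normalised values after thinning to 2000 UMIs) of each cycling cell (points, shifted sideways at random) by barcode set (x axis), with the median of cycling (red bars) and other cells (black bars). The red bar is above the black bar in every set, and single cells reach from -1.07 to 0.99.

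Resting and lymphoid-homing genes were lower in part. The list summed to 3479 against 4217 CPM, lower in 4 of 6 sets, and 3 of 11 measured members were called lower (0 to 3 over the 20 draws), against 4.7% of all measured genes. With deep other cells as the comparison none was called lower, 2 were called higher, and the list's median log2 ratio was 0.10. Ccr7, the chemokine receptor of lymph node homing, was at 56.3 against 159 CPM (log2 ratio -1.50, 12 of 20 draws). Foxp1, a factor of T cell quiescence, was at 77.5 against 188 CPM (log2 ratio -1.28, 10 of 20), and Tcf7 at 77.5 against 161 CPM (log2 ratio -1.05, 2 of 20). Against upper-tertile other cells, no measured member was called lower, and Klf2, a quiescence factor, was called higher at a log2 ratio of 0.89, a comparison with cells picked for low levels of this list.

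Treg identity genes summed to 4176 CPM in cycling and 5626 CPM in other cells, lower in all 6 sets. Of 14 measured members, 3 were called lower, against a background of 4.7%, and 1, Capg, higher, and over the 20 draws 2 to 5 were lower. Izumo1r, which encodes folate receptor 4 of Treg cells, was at 700, 833, 250, 469, 231 and 773 CPM against 1061 to 1274 CPM. Its log2 ratio was -1.03 (-1.36 to -0.71), it was called in 19 of 20 draws, and the ratio was -1.28 against upper-tertile and -0.91 against deep other cells. Rgs1, a regulator of G protein signals, was at 98.6 against 322 CPM (log2 ratio -1.71, 16 of 20 draws), but its log2 ratio was -0.53, without a call, against deep other cells. Tnfrsf4, the costimulatory receptor OX40, was at 338 against 621 CPM (log2 ratio -0.88, 14 of 20 draws; -1.06 and called against deep other cells). Ikzf2 had 796 against 874 CPM (log2 ratio -0.14, -0.42 to 0.13), and the T cell genes Cd3d, Cd3e and Cd3g had log2 ratios from -0.26 to 0.01. Foxp3 gave 2 thinned UMIs in the cycling cells, 14.1 CPM (1.71 to 50.9) against 20.3 CPM, too few for a comparison. Bach2, the gene deleted in cKO mice, gave 1 thinned UMI. Before thinning it had 7 UMIs in the 71 cells, 10.8 CPM against 28.7 CPM in other cells (log2 ratio -1.40, -2.72 to -0.35), and without genotypes this mixes both kinds of mice.

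Genes of the interleukin-2 receptor and its STAT5 targets had a lower sum in cycling cells, but no member was called against deep other cells. They summed to 1254 against 2196 CPM, lower in all 6 sets, and 4 of 10 measured members were called lower and none higher (1 to 5 lower over the 20 draws), against 4.7% of all measured genes. The median log2 ratio was -0.77, and -0.28 against deep other cells. Bcl2, which encodes a survival protein (chr1:106538178-106714274, minus strand), was at 200, 167, 125, 31.25, 76.9 and 22.7 CPM in cycling and 328 to 458 CPM in other cells. Its log2 ratio was -2.38 (-3.38 to -1.54), called in all draws, and -1.17 without a call against deep other cells. Socs1, a cytokine signalling inhibitor, was at 35.2 against 124 CPM (log2 ratio -1.82, 18 of 20 draws) on 5 UMIs. Socs3 rested on 2 UMIs (log2 ratio -2.54, -5.59 to -0.68, 9 of 20 draws). Il2ra, the high-affinity receptor chain, was at 35.2 against 119 CPM (log2 ratio -1.75, -3.38 to -0.53), lower in 5 of 6 sets and not called. Il2rb and Il2rg had log2 ratios of -0.33 and -0.30. Relative to the median gene, 7 of these 10 genes were lower, as were 6 of the 14 Treg identity genes and 2 of the 7 T cell markers, against 13.4% of all measured genes.

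Shares of the RNA and numbers of molecules per cell gave different ratios. Before thinning, cycling cells held 0.87 times as many Bcl2 UMIs per cell as other cells, 1.23 times as many of Btg1, 1.75 times as many of Izumo1r and 1.89 times as many of Il2ra. Malat1, an abundant nuclear RNA (chr19:5795690-5802672, minus strand), was lower as a share in every set. Its levels were 11350, 11583, 8375, 8344, 10423 and 9523 CPM in cycling cells and 31451 to 36869 CPM in other cells (log2 ratio -1.76, all draws). Per cell, unthinned, cycling cells held 83.0 Malat1 UMIs and other cells 86.3, a ratio of 0.96. Against deep other cells its log2 ratio was -0.81 and it was still called.

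Ribosomal protein genes made up a smaller part of the RNA in cycling cells. This list was added after values had been seen. Its 86 genes gave 267599 CPM against 372853 CPM, and the sums by set, 221625 to 311950 against 341051 to 405876 CPM, did not overlap. Of 82 measured members 21 were called lower, against a background of 4.7%, and 1, Rps27l, higher (5 of 20 draws). Rps27 was at 6950, 7333, 5750, 4844, 5885 and 5182 CPM against 13117 to 15888 CPM (log2 ratio -1.34, -1.44 to -1.24, all draws), and Rpl36 had a log2 ratio of -0.88. Per cell, cycling cells held 1.55 times as many Rps27 UMIs as other cells. Rps27 and Rps27rt are near-identical, and reads may be split between them. Relative to the median gene 65 of 82 were lower, against 13.4% of all measured genes. Against deep other cells 17 were called lower, with 3.07% of all genes. Against upper-tertile other cells only 5 were, near the 4.69% of all genes there. Over the 20 draws 21 to 29 were called lower.

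Some genes of metabolism and growth were higher. Oxidative phosphorylation genes summed to 13085 against 9370 CPM without overlap between the sums by set, and 8 of 25 measured members were called higher, against 11.1% of all measured genes. Cox8a and Cox5b, subunits of cytochrome c oxidase, had log2 ratios of 0.96 and 0.97 in 18 and 15 of 20 draws. Gapdh, a glycolytic enzyme gene, was at 1200, 1333, 2000, 1844, 1308 and 1364 CPM against 595 to 726 CPM (log2 ratio 1.15, all draws). Of 9 measured glycolysis genes 2 were called higher, and 0 against deep other cells. Relative to the median gene, 1 of the 9 was higher and 1 lower. Pkm, Pgk1 and Tpi1 had log2 ratios of 0.78, 1.21 and 1.66 but were higher in only 4, 5 and 4 of 6 sets, so were not called (14, 10 and 1 of 20 draws). Tpi1 was measured only through the cycling cells. Ppia, the cyclophilin A gene, had 5092 against 2732 CPM (log2 ratio 0.90, all draws). Ran, the GTPase of nuclear transport and spindle assembly, and its partner Ranbp1 had log2 ratios of 1.68 and 1.65 (19 and 16 of 20 draws). The proteasome list had 4 of 23 members called and the nucleolus list 2 of 18, the latter no more than the background of 11.1%. No nucleolus gene was called higher and 1 was called lower against deep other cells. Over the 20 draws, 4 to 10 oxidative phosphorylation and 0 to 8 proteasome genes were called higher. Relative to the median gene, 2 of 25 oxidative phosphorylation genes were higher, near the 6.39% of all measured genes, and of the 23 proteasome genes 1 was higher and 2 lower, with 13.4% of all genes lower. These differences were smaller against deep other cells, which also held more RNA of some markers of other cell types. In that comparison Gapdh had a log2 ratio of 0.08, Ran 0.34 and Ppia 0.47, none of them called. There 1 of 25 oxidative phosphorylation genes was called higher, with 8.26% of all genes.

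**Figure D5:**
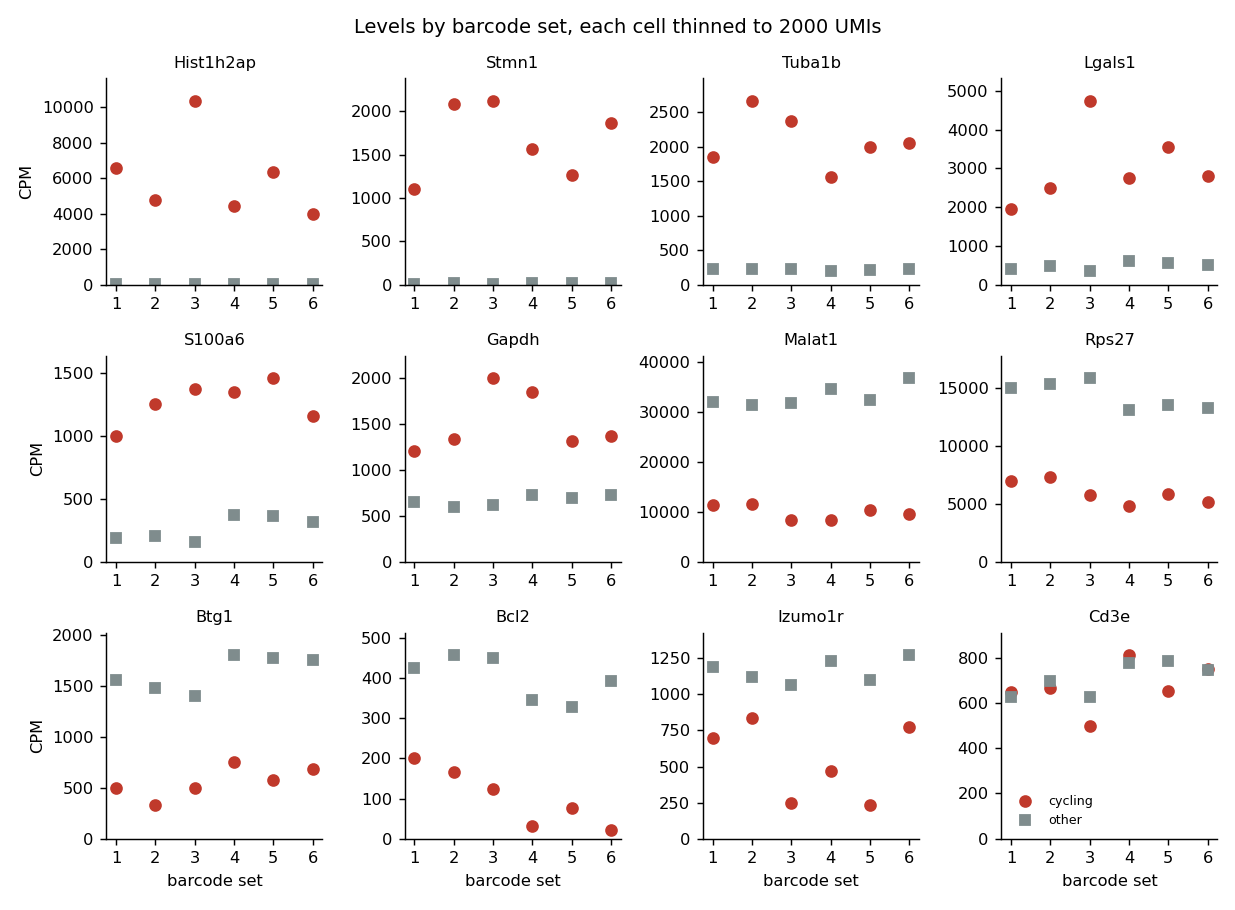
Level in CPM (y axes, each from 0) of 12 genes in cycling cells (red circles) and other cells (grey squares) by barcode set (x axes), after thinning to 2000 UMIs per cell. Circles lie above squares in every set for Hist1h2ap, Stmn1, Tuba1b, Lgals1, S100a6 and Gapdh, below them for Malat1, Rps27, Btg1, Bcl2 and Izumo1r, and on both sides for Cd3e.

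Of 16 chemokine and homing receptor genes, 8 were measured. Of these 1, Ccr2, was called higher and 1, Ccr7, lower, against 11.1 and 4.7% of all measured genes. The 1 higher call is near that share. The receptors Ccr2 and Ccr10 were measured only through the cycling cells, so their direction was fixed by the filter and their values are a description. Ccr2, a receptor of inflammatory migration, had UMIs in 13 of 71 thinned cells (18.3%, 10.1 to 29.3%), against 3.47% of other cells, 3.67% of deep other cells and 0 of 37 B cells, which by 3 counts of 37 allows a share of up to 8.11% of cells with a UMI. Its log2 ratio was 2.26 (1.43 to 2.98) here but it was called in only 1 of 20 draws, where it ranged from 0.80 to 2.55. Ccr10, a receptor for mucosal and skin chemokines, had UMIs in 7 of 71 cells (9.86%, 4.06 to 19.3%) against 0.358% of other cells and 0.917% of deep other cells. Its 11 UMIs came from 4 of the 6 sets, so it was not called (log2 ratio 5.06, 3.89 to 6.13). Of 4 measured AP-1, BACH and small MAF genes 1, Jun, was called lower, against 4.7% of all measured genes. Jun was at 35.2 against 116 CPM (log2 ratio -1.72, 16 of 20 draws), on 5 UMIs. Against deep other cells its log2 ratio was -0.97, without a call. Junb had a log2 ratio of -0.97 (-1.55 to -0.45), lower in 5 of 6 sets and not called. Jund had a log2 ratio of -0.13 and Batf one of 0.51, neither called. The list of T cell receptor response genes had 1 of 13 measured members called lower, Jun, against 4.7% of all measured genes, and a median log2 ratio of -0.08.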

How the data were processed

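Single-cell 3′ RNA libraries of 6 samples, 3 labelled cKO and 3 WT, were deposited as 1 count table (whole UMI counts, 14098 genes, 10685 cells, 25389602 UMIs; 507 to 22130 per cell, median 2089) and 1 normalised table of 10464 cells. The submitters' processing notes name FastQC, cutadapt, HISAT2, Cell Ranger, Seurat and the build mm10, with no roles, and how they were combined is not given in the sources used here. The authors' deposited normalised values equal the natural log of 1 plus 10000 times the count over the cell's total, as checked on the values. That table was used only to see which cells it holds. The labels' protocols also describe bulk RNA extraction, which was not analysed here.

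No cell column names a sample, so no genotype comparison, test or p-value was made, and the barcode sets stand in for no group. Cells were thinned without replacement to 2000 UMIs (seed 1), counts were summed over cells, and levels were scaled to 1000000 UMIs (CPM). Intervals (95%) are exact Poisson for levels, Clopper-Pearson for shares and exact conditional binomial for ratios, given in parentheses after the value. They cover counting error only, and 1 UMI is worth 7.04 CPM in the cycling cells. A share of 0 was bounded by 3 counts. No doublet caller was run. Python 3.11.15 with numpy 2.4.6, scipy 1.17.1, pandas 2.3.3 and matplotlib 3.10.9 was used, and the scripts were tested on simulated data.

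The members and the gene lists were chosen with earlier results of these data known, and the ribosomal protein list after values had been seen. The rule for named genes took Foxp3, Bach2, the 9 genes of the rule (levels only), the 15 largest ratios each way among measured genes, and in each list up to 4 measured members with the largest log2 ratio in size. Other genes named were chosen after their values were seen. A few genes of the lists are not reported here by name. Of 131 named and rule genes, 129 had a position in GENCODE M21 (GRCm38), and 1810 of 2254 measured genes matched a RefSeq promoter. A gene counted as holding a motif if any of its listed promoters did. Alternatives covered thinning depth and draws, scaling, filters, the set of other cells, the limit of the rule and each barcode set left out.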

Additional observations from a re-analysis of the deposited data

How the results depend on the processing

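No paired analysis was possible because the cell columns carry no sample or replicate number. The 250 genes called higher and 106 called lower changed as follows. Thinning to 1000 UMIs gave 126 higher, and no thinning 645 higher and 412 lower. Without any cell holding a UMI of other cell types there were 102 and 48, without the deepest 2% of cells 64 and 48, and there were 151 and 68 with only cells that the authors' normalised table holds. Relative to the median gene there were 144 and 302, and totals without rule, ribosomal and mitochondrial genes gave 238 lower. The low filter on other cells only gave 142 higher, no low filter 2646 lower, and a 2-fold limit 47 lower. Leaving out each barcode set in turn gave 266 to 328 higher and 101 to 132 lower. Chosen after seeing the data, the summed ratio with no rule on sets gave 807 and 232, and the mean of each cell's UMI shares 420 higher. With only the cells of the authors' table, 35 cycling cells were left and 60% lay in the upper tertile of the score, against 73.2%. Without the histone list, 47.9% of cycling cells had more S phase than mitosis UMIs, against 100%. Of 69 named genes that were called, 4 reversed under any alternative: Ccr7 against upper-tertile cells (0.12), Tsc22d3 against deep cells (0.10), and Guk1 (0.18) and Nrip1 (0.38) in 1 draw each. The causes were not tested. Calls in the lower range are limited by depth, since 10 UMIs in the cycling cells are 70.4 CPM and the smallest set holds 8000 thinned UMIs.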
